A study of Mus musculus with 10 samples.

Results

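Of 5284 Suz12 sites with a binding p-value of at most 1e-19 in mouse embryonic stem cells (ESCs), 384 did not appear among the sites called depleted on Pcl3 knockdown, and these 384 kept sites are described here. They were chosen by the authors' measured values: the p-value of Suz12 binding, which had to be at most 1e-19, and the absence of the site, by chromosome, start and end, from the list of Suz12 sites depleted in cells expressing Pcl3 shRNA. The kept sites made up 7.27% of sites at this strength and 10.8% of the 3564 sites with p-values between 2.62e-100, the smallest kept value, and 1e-19. The other 3180 sites of that range, all in the depleted list, are the comparison unless stated otherwise. A further 1720 sites had smaller p-values still, and each of those was depleted. The whole list holds 8876 Suz12 sites, of which 3154 are outside the depleted list at any p-value. Absence from the depleted list means that no loss was called. No values of the loss itself were used here, so a kept site may have changed by less than could be called.

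Suz12 was measured by ChIP-seq, which sequences DNA fragments pulled down with an antibody, using FlagM2 against a TAP-tagged Suz12 in Suz12 Suz12TAP/+ ESCs of the BayGenomics gene trap line XG122. These cells expressed scramble or Pcl3 shRNA, with 1 Suz12 library, 1 H3K27me3 library and 1 input library for each. Pcl3 was measured with the same antibody in E14 ESCs carrying Pcl3-TAP. There were 2 libraries, from cells with Pcl3 shRNA6 or shRNA7, and 2 inputs, with 1 common list of sites. The study describes a Pcl3-TAP that escapes the Pcl3 shRNAs and was put back into Pcl3 shRNA cells, where it partly restored Pcl3 mRNA. The Pcl3 list therefore describes tagged Pcl3 in knockdown cells, not endogenous Pcl3 in control cells. Pcl3 binding and Suz12 binding thus come from different ESC lines, and the tagged Suz12 is expressed beside an untagged allele. Each Suz12 and H3K27me3 condition had no replicate, so every interval and test below is over sites of the same libraries, does not cover variation between cultures, and treats as independent sites that can lie close together. The lists hold no read counts, so the depth behind a single site is unknown.

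Suz12 is a core subunit of Polycomb repressive complex 2 (PRC2), which trimethylates lysine 27 of histone H3 (H3K27me3) at genes held silent. In ESCs the complex occupies CpG-rich promoters of developmental regulators. Pcl3, also called Phf19, is a Polycomb-like protein that associates with PRC2 and recognizes methylated histone H3 through its Tudor domain.

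The centers of the 4 strongest kept sites whose central 300 bp could be shown without annotated UTR sequence are given first, because they display how widely CpG content varied among strongly bound sites that were kept. All are the plus strand of mm9, with each CG dinucleotide in capitals. The windows are chrX:45697601-45697900 at Bcorl1, chr14:122863601-122863900 at Zic5, chr6:81992101-81992400 at Fam176a and chr8:91568751-91569050 at Sall1. They hold 11, 48, 18 and 16 CG dinucleotides.
Bcorl1, kept: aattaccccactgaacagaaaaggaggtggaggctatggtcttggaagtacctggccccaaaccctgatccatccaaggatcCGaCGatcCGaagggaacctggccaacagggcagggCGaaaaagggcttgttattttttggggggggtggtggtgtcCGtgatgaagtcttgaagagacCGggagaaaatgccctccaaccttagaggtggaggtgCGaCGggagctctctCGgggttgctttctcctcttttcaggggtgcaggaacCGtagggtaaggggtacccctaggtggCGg
Zic5, kept: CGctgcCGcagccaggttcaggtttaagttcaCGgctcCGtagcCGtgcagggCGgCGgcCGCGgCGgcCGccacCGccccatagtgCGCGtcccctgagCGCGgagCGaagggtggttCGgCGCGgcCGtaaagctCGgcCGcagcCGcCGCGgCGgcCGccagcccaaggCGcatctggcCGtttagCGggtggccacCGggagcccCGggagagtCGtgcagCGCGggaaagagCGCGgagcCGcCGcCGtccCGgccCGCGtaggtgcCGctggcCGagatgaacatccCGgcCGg
Fam176a, kept: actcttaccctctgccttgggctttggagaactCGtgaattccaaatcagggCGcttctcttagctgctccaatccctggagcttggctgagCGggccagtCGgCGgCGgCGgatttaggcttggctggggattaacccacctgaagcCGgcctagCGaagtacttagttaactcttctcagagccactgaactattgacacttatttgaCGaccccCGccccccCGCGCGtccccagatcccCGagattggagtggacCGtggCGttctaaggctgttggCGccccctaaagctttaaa
Sall1, kept: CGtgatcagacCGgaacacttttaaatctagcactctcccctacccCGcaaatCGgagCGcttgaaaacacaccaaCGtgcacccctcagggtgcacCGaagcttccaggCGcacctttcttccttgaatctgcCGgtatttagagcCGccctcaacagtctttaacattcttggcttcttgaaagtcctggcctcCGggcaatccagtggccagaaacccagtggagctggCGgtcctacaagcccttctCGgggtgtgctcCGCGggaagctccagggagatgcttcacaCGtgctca

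For contrast, the depleted sites that follow Bcorl1 and Fam176a most closely in p-value, under the same rule on UTRs, lie near Uts2r (chr11:121017926-121018225, site p-value 2.85e-100) and Neurl1b (chr17:26575751-26576050, site p-value 4.05e-62). Their windows hold 28 and 50 CG dinucleotides. The window of the kept site at Tmem151a (chr19:5082226-5082525), 1 of the loci that the study tested, holds 12. No depleted window is shown beside Zic5 or Sall1, so these few windows do not stand for the groups. Over the central 500 bp, the median was 6.8 CpG per 100 bp for all 384 kept sites and 8.0 for the 3180 depleted ones.
Uts2r, depleted: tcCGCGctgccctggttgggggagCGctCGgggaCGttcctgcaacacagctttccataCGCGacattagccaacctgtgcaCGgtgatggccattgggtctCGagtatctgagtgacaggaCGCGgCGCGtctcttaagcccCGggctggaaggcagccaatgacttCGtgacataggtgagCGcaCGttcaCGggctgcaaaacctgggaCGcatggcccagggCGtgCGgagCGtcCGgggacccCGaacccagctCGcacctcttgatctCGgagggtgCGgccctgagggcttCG
Neurl1b, depleted: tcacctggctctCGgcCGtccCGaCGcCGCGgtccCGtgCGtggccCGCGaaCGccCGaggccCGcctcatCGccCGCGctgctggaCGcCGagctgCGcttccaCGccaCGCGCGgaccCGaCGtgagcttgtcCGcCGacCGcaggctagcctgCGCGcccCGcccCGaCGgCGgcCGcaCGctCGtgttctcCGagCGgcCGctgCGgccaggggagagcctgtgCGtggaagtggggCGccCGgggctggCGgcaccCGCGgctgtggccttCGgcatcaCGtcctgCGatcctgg
Tmem151a, kept: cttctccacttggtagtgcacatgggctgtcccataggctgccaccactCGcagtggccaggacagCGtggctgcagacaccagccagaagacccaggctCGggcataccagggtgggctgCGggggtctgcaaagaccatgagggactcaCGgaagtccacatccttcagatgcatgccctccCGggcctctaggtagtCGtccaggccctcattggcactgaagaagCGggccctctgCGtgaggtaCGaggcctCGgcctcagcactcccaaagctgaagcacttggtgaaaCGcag

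The strongest kept site, with p-value 2.62e-100, spans 3400 bp at chrX:45696051-45699450 in an intron of Bcorl1, an X-linked relative of the transcriptional corepressor Bcor, and its center lies 803 bp downstream of the gene's start. A Pcl3 site lay 400 bp away with p-value 1.10e-10. It was also the widest kept site, and its nearest neighbour, centered 3000 bp away with p-value 4.08e-85, was depleted. The second strongest site (p-value 8.33e-73, 2800 bp) was centered in a coding exon of Zic5, a zinc finger transcription factor of the developing nervous system, at chr14:122862351-122865150. Its Pcl3 site had p-value 5.96e-26, and of the 11 other Suz12 sites within 50 kb the 3 nearest were kept. The site at Sall1, a zinc finger gene required for kidney development, lay 839 bp upstream of the start at chr8:91567701-91570100 (p-value 2.01e-60) with a Pcl3 site 125 bp away (p-value 1.32e-35). A further kept site (p-value 7.31e-43) was centered 3250 bp from it, inside the gene, and no depleted site lay nearer than 417475 bp. Sall1 is thus a locus where both Suz12 sites at this strength were kept, with Pcl3 at the promoter.

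Pcl3 was not found near all of the strong kept sites. At Fam176a (p-value 2.70e-62) the nearest Pcl3 site was 118475 bp away. At Tle3, which encodes a Groucho-family corepressor, it was 587275 bp away (p-value 2.84e-58 for Suz12), and at Gli2, a transcription factor of the Hedgehog pathway, 368325 bp (p-value 3.48e-55). At Tacr1, the receptor of substance P, it was 478750 bp (p-value 2.09e-51). The remaining 3 of the 10 strongest kept sites each had Pcl3 within 2 kb. They lay 223 bp upstream of Dlgap3, a postsynaptic scaffold gene (p-value 4.68e-59, Pcl3 p-value 9.97e-10), 288 bp upstream of a start of Gm10125 and within 5 kb of that of Zeb1, a repressor of epithelial genes (p-value 8.47e-52, Pcl3 p-value 2.54e-12), and in a coding exon of C2cd4c (p-value 8.93e-52, Pcl3 p-value 4.55e-09). Of the 10, 6 thus had a Pcl3 site within 2 kb and 4 did not.

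Binding p-values of the kept sites crowded toward the cutoff. On the −log10 scale their median was 23.4 (quartiles 20.5 and 28.5), against 42.9 (29.1 and 63.7) for depleted sites of the same range. The kept share was 40.1% of sites with −log10 p from 19 to 22 (158 of 394), 7.73% from 30 to 40 (50 of 647) and 0.318% above 60 (3 of 945). These values belong to the rule that chose the sites and are given as a description. The members just inside the cutoff lie at Pnpla3 (p-value 7.74e-20), Grin3b (8.84e-20) and Sema3f (9.35e-20), and the kept sites just outside it at Hoxb9 (1.001e-19), Hmx2 (1.001e-19) and Mbnl1 (1.034e-19). The cutoff falls within a continuous decline of the kept share.

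**Figure D1:**
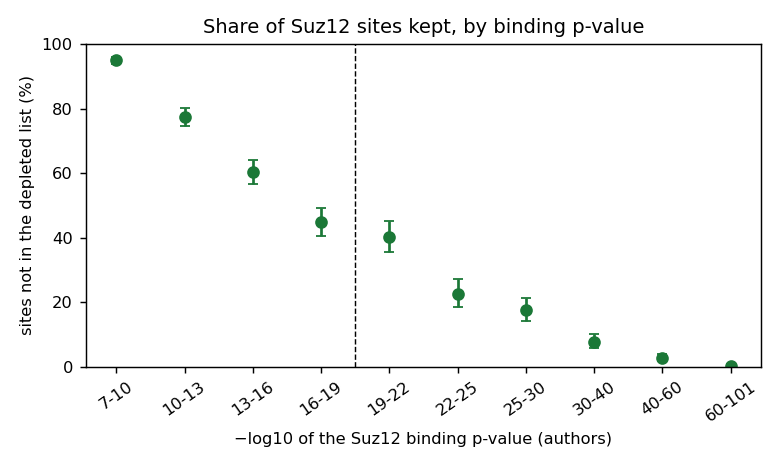
Share of Suz12 sites outside the depleted list (y axis, %) in 10 bins of −log10 of the authors' binding p-value (x axis). Points are shares with 95% Wilson intervals over sites and the dashed line marks the cutoff of 1e-19. The share was 95.1% in the weakest bin, 44.9% just below the cutoff and 0.318% in the strongest bin.

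Kept sites were narrower in all, with a median width of 1100 bp against 1350 bp, but wider at like strength. In 5 strata cut at equal numbers of kept sites along −log10 p, median widths of kept and depleted sites were 1000 and 900 bp in the weakest stratum, 1000 and 950, 1125 and 1000, 1250 and 1100, and 1550 and 1500 bp in the strongest. Width and p-value both come from the library that chose the sites, so these widths are a description. In the plot of width against p-value the kept sites lie along the wide side of the depleted ones.

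**Figure D2:**
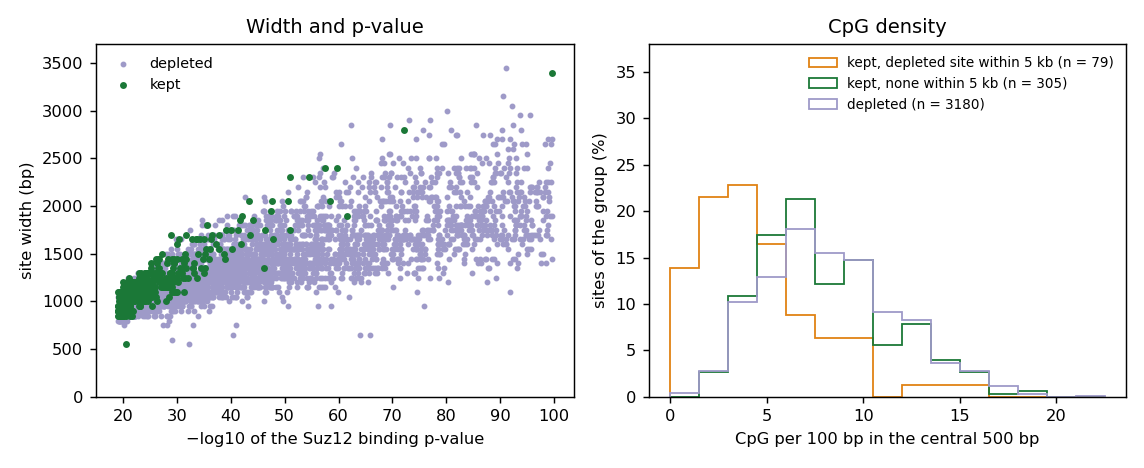
Left, width of each Suz12 site (bp) against −log10 of its binding p-value, for 384 kept and 3180 depleted sites, with 1 point per site. Right, distribution of CpG per 100 bp in the central 500 bp, as percent of the sites of each group, for kept sites with (n = 79) and without (n = 305) a depleted site within 5 kb and for depleted sites, with median densities of 4.0, 7.2 and 8.0.

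Many kept sites were isolated, and others lay beside a depleted site. No other Suz12 site lay within 50 kb of 167 kept sites (43.5%), nearly the share among depleted sites (45.2%, 1438 of 3180). Of the kept sites, 79 (20.6%) had the center of a depleted site within 5 kb, and 26 (6.77%) within 2 kb. The remaining 138 (35.9%) had another Suz12 site within 50 kb but no depleted site within 5 kb. How many depleted sites had another depleted site within 5 kb was not counted, so 20.6% has no share to be read beside. The nearest other site at p of at most 1e-19 was kept for 9.90% of kept and 7.04% of depleted sites. These 79 sites had a median of 4.0 CpG per 100 bp (quartiles 2.1 and 5.9) and only 30.4% had a protein-coding start within 1 kb. The other 305 had a median of 7.2 (5.4 and 10.0), and 69.8% had a start within 1 kb. Of the 14 kept sites within 5 kb of a homeobox gene's start, 10 were beside a depleted site. There were also 14 neighbouring pairs of kept sites with centers within 10 kb of each other. Among them were pairs at Furin, which encodes a proprotein convertase (1050 bp apart), Epha4, an ephrin receptor of axon guidance (1725 bp), and Bcor (3525 bp). Another pair (3875 bp apart) had Pax2, a transcription factor of kidney and eye development, as its nearest gene. The first site of that pair lay 35864 bp upstream of the start. The subsets were drawn after the values were seen and rest on the depleted list, and no test was made between them.

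A Pcl3 site lay within 2 kb of 99 of the 384 kept sites, which is 25.8% (21.7% to 30.4%, 95% Wilson interval over sites), and of 1667 depleted sites, which is 52.4% of 3180 (50.7% to 54.2%), beside 49.6% for both groups together. Pcl3 did not enter the rule, but strong sites are more often near Pcl3 and depleted sites are stronger, so the comparison was made within the 5 strata of p-value. The share was 15.8% of kept and 30.3% of depleted sites in the weakest stratum, 26.9% and 20.3% in the next, then 23.7% and 32.9%, 24.7% and 31.9%, and 37.7% and 60.3% in the strongest. Kept sites were the less often accompanied by Pcl3 in 4 of the 5 strata. The Mantel-Haenszel odds ratio of kept against depleted sites was 0.611 (95% interval 0.471 to 0.792, chi-squared test over sites, two-sided p = 0.000144). The Breslow-Day test, of whether the odds ratio is the same in every stratum, gave p = 0.0236 (n = 3564 sites). The value 0.611 is thus an average over strata that differed. The strongest stratum is wide, from 29.6 to 99.6 on the −log10 scale, and within it the median was 35.1 for kept and 52.4 for depleted sites. Strata only 2 units wide, chosen after the values were known, gave an odds ratio of 0.724 (0.558 to 0.941, chi-squared p = 0.0150, Breslow-Day p = 0.404). Narrow strata without a kept site drop out, so 2321 of the 3180 depleted sites entered there. Without strata the odds ratio was 0.315, so the association between being kept and lacking Pcl3 was smaller at closely matched strength.

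Where Pcl3 was near, its own p-values did not order kept and depleted sites in a uniform way. The median −log10 p of the strongest Pcl3 site within 2 kb was 11.6 at 99 kept sites (quartiles 8.47 and 20.3) and 16.2 at 1667 depleted sites (10.4 and 27.6). In the weakest stratum of Suz12 the medians were 12.3 and 11.2, and in the strongest 10.8 and 16.9. For Pcl3 sites at p of at most 1e-12, the shares were 11.2% of kept and 34.1% of depleted sites, and the odds ratio over 5 strata was 0.483 (0.342 to 0.684, chi-squared p = 2.35e-05). At 4 kept sites the authors wrote the p-value of the Pcl3 site as 0, so these are tied, and each had a homeobox gene's start within 5 kb. In order of Suz12 p-value they lay 4444 bp into Hmx3, a gene of inner ear development (Suz12 p-value 8.52e-27), 360 bp upstream of a start of Hoxd3 (1.77e-26), 1747 bp upstream of a start of Hoxa10 (8.53e-21) and within 5 kb of starts of Hoxd9 and Hoxd10 (2.41e-20). Each of them had a depleted site within 5 kb, at 4700, 1050, 2375 and 2050 bp. Of the kept sites as a whole, 191 (49.7%) were more than 50 kb from any Pcl3 site, against 33.2% of depleted sites.

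**Figure D3:**
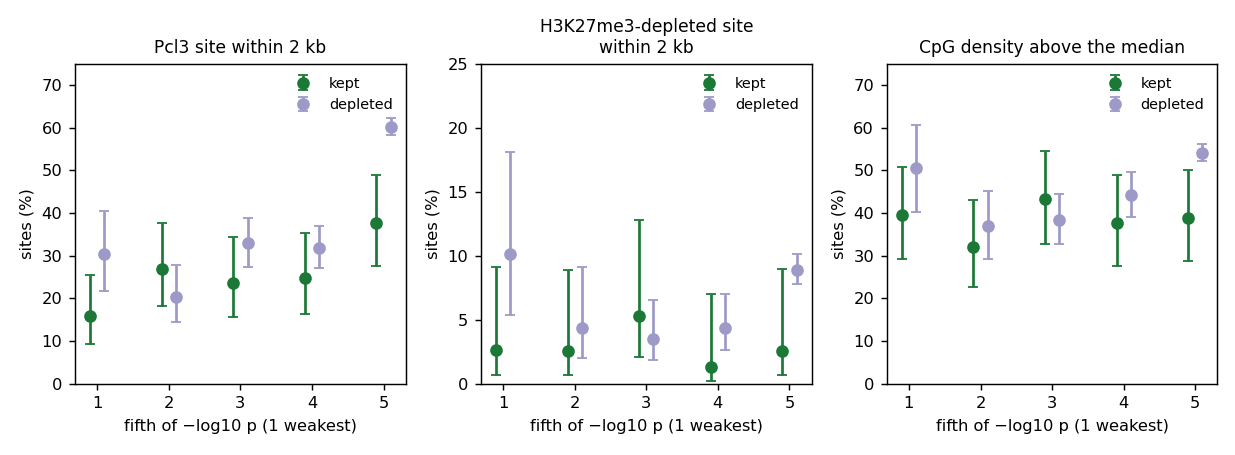
Percent of kept and depleted sites (y axis) with a Pcl3 site within 2 kb, with an H3K27me3-depleted site within 2 kb, and with a CpG density above the common median, in 5 strata of −log10 binding p (x axis, 1 weakest). Bars are 95% Wilson intervals over sites. In the strongest stratum the Pcl3 shares were 37.7% of kept and 60.3% of depleted sites.

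Sites where H3K27me3 decreased on Pcl3 knockdown were rare near kept Suz12 sites. Such a site lay within 2 kb of 11 of 384 kept sites, or 2.86% (1.61% to 5.06%), and of 248 of 3180 depleted sites, or 7.80% (6.92% to 8.78%), with 7.27% over both. The odds ratio was 0.447 over 5 strata (0.233 to 0.857, chi-squared p = 0.0130) and 0.500 with strata 2 units wide (0.260 to 0.963, chi-squared p = 0.0336). The test rests on 11 kept sites and on chromosome 11 in part: of the 301 depleted sites there 70 (23.3%) had such a site near, against 6.18% elsewhere, and without that chromosome the odds ratio was 0.525 (0.262 to 1.05, chi-squared p = 0.0642). With centers allowed within 5 kb the odds ratio was 0.693 (chi-squared p = 0.147). The 3 kept sites with the most significant H3K27me3 decrease lay in an intron of Ptprs, a receptor tyrosine phosphatase of axons (H3K27me3 p-value 3.07e-15, Suz12 p-value 4.49e-24), in a coding exon of Clip1, which encodes a microtubule plus-end protein (9.92e-15 and 7.37e-25), and 47267 bp from Azin1, an inhibitor of antizyme (2.25e-10 and 5.05e-27). The first and the last of these had Pcl3 within 2 kb, and the site at Clip1 was 360925 bp from Pcl3.

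Most kept sites lay at promoters, and no difference from depleted sites passed the test. A start of a protein-coding gene lay within 1 kb of 237 kept sites (61.7%, 56.8% to 66.4%) and of 2006 depleted sites (63.1%, 61.4% to 64.7%). The odds ratio was 1.09 over 5 strata (0.860 to 1.38, chi-squared p = 0.475) and 1.10 with strata 2 units wide (0.869 to 1.40, chi-squared p = 0.420), an interval that allows modest differences either way. Without the 79 kept sites beside a depleted one, and with all 3180 depleted sites, it was 1.56 (1.19 to 2.04, chi-squared p = 0.00113), an alternative chosen once the values were known, in which the depleted sites were not thinned likewise. The center of 37.0% of kept sites lay in an intron, of 23.4% in a coding exon, of 23.4% between genes and of 16.1% in a UTR, against 29.9%, 25.2%, 24.7% and 20.2% of depleted sites. Centers tended to lie past the start: 233 kept sites were within 5 kb downstream of their nearest start and 68 within 5 kb upstream. A further 61 (15.9%) were more than 10 kb from any protein-coding start, and 23 of these had Pcl3 within 2 kb.

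Divergent promoters, where 2 genes start close together on opposite strands, were found at 12 kept sites (3.13%, 1.80% to 5.38%) and 51 depleted sites (1.60%, 1.22% to 2.10%). The difference did not pass the test, with an odds ratio of 1.59 over 5 strata (0.796 to 3.16, chi-squared p = 0.168). The kept ones included Tle3 with Gm10655, Ubtd1 with Mms19, Litaf with Snn, and Col4a3 with Col4a4, a pair of collagen IV chains of basement membranes transcribed from a common promoter. None of the 12 had a Pcl3 site within 2 kb, the nearest being 42850 bp away, whereas 16 of the 51 depleted ones did. This count was singled out after its values were seen and was not tested.

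**Figure D4:**
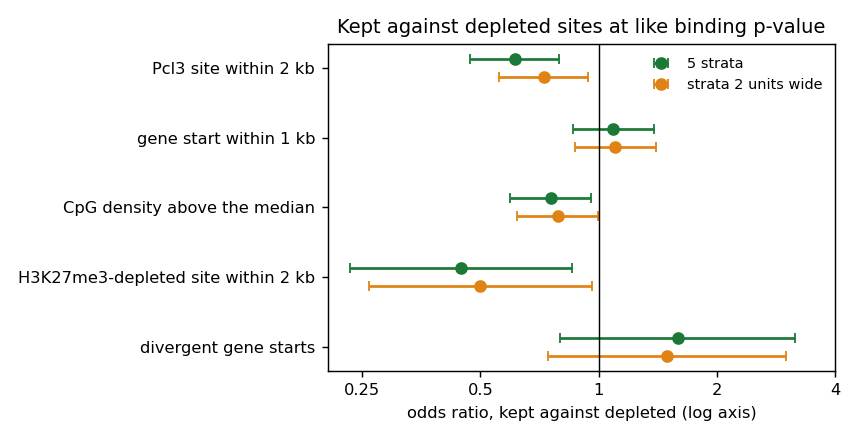
Mantel-Haenszel odds ratios (x axis, log scale) of 5 features in kept against depleted Suz12 sites, with 95% intervals, over 5 strata of binding p-value and over strata 2 units wide. The 2 sets of strata give 0.611 and 0.724 for a Pcl3 site within 2 kb, and 1.09 and 1.10 for a gene start within 1 kb.

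CpG density at the center of the site was lower in kept than in depleted sites. Over the central 500 bp the median was 6.8 CpG per 100 bp (quartiles 4.8 and 9.4) against 8.0 (5.8 and 10.6). A density above the common median was found in 38.3% of kept sites (33.6% to 43.2%) and 51.0% of depleted sites (49.2% to 52.7%), with an odds ratio of 0.754 over 5 strata (0.595 to 0.956, chi-squared p = 0.0189) and 0.785 with strata 2 units wide (0.620 to 0.995, chi-squared p = 0.0439). Kept sites had the higher share in the middle of the 5 strata (43.4% against 38.4% of depleted sites) and the lower share in the others. The gap was widest in the strongest stratum (39.0% against 54.1%), where depleted sites had the smaller p-values. The call of a lower CpG density did not hold over wider windows or without the kept sites beside depleted ones. Over the whole site the medians were 5.47 and 5.57 and the odds ratio 0.942 (0.747 to 1.19, chi-squared p = 0.613), over 1000 bp it was 1.01 (chi-squared p = 0.909), and without the 79 kept sites beside a depleted site, against all 3180 depleted sites, it was 0.964 (0.746 to 1.25, chi-squared p = 0.779). At the low end, 39 kept sites (10.2%) had at most 3 CpG per 100 bp, against 3.96% of depleted sites, and 29 of the 39 were beside a depleted site. The lowest density, 0.2, was at the site upstream of Hoxa10.

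Short sequence motifs were counted on both strands of the central 500 bp, as letters and not as sites of binding. The 8 motifs were GCGCGC, the E-box CACGTG, the E2F motif TTCCCGC, the Ets motif CCGGAAG, the NRF1 motif CGCATGCG, the YY1 motif AAGATGGC, the Zfx motif AGGCCT and the Klf motif CCACACCC. No overlap between motifs was removed. GCGCGC was present at 37.0% of kept and 45.0% of depleted sites (odds ratio 0.884, 0.696 to 1.12, p adjusted over the 8 motifs by Benjamini-Hochberg 0.496). CGCATGCG passed the adjusted test: it stood at 10 kept sites (2.60%, 1.42% to 4.73%) and 22 depleted sites (0.692%, 0.457% to 1.05%), with an odds ratio of 4.35 (1.77 to 10.7, adjusted chi-squared p = 0.00597). The count is small, and with p-values of at most 1e-25 or at most 1e-15, or in 1000 bp around the center, the adjusted p was 0.440, 0.0930 and 0.184. Kept sites that held it included those nearest to BC048671, Xrra1, Cntn1, Abhd5, Lmo3, Arntl2, Fsd1l, Sh3bp1 and Zfyve16. CCACACCC stood at 7.29% and 4.75% (odds ratio 1.71, 1.07 to 2.72, adjusted chi-squared p = 0.0907), and the remaining 5 motifs had odds ratios from 0.733 to 1.39 with adjusted p-values from 0.308 to 0.895.

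The share of kept sites differed between chromosomes. Chromosome X had the highest, 21.1% of its 71 sites (15 sites, 13.2% to 32.0%), and chromosome 11 the lowest, 5.94% of 320 (19 sites, 3.83% to 9.09%), beside 10.8% over all chromosomes. With each chromosome set against the others over the 5 strata, the odds ratios were 2.86 for X (1.48 to 5.54, p adjusted over 20 chromosomes 0.00799) and 0.396 for 11 (0.238 to 0.659, adjusted chi-squared p = 0.00595), and these were the 2 that passed. Chromosomes 10 (18.1%, odds ratio 1.92) and 4 (15.9%, 1.69) had an adjusted p of 0.0528 each. Among sites with p-values of at most 1e-25, chromosome 11 had an odds ratio of 0.317 and an adjusted p of 0.116, and did not pass. The 15 kept sites on X included 3 whose nearest start is that of Bcor, which encodes a corepressor of Polycomb complexes. Their p-values were 1.57e-38, 2.46e-32 and 1.31e-22, and they lay 4556, 8081 and 272979 bp from that start, the last between genes. Also among the 15 were sites at Bcorl1 and at Pou3f4, a POU homeobox gene of ear and brain development (p-value 1.26e-42, nearest Pcl3 998400 bp). A Pcl3 site lay within 2 kb of 7 of the 15. No kept or depleted site of X had an H3K27me3-depleted site within 2 kb. Each cell population was a single culture, and a difference in the copy number of a chromosome between the cultures and a difference in binding cannot be told apart from these lists.

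**Figure D5:**
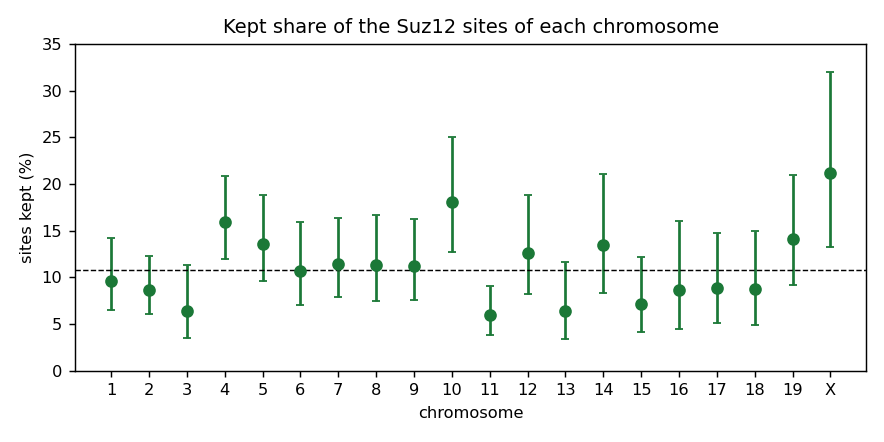
Percent of the Suz12 sites of each chromosome (x axis) that were kept (y axis), among sites with binding p-values from 2.62e-100 to 1e-19. Points have 95% Wilson intervals over sites, and the dashed line is the share over all chromosomes, 10.8%. Chromosome X stands at 21.1% and chromosome 11 at 5.94%.

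The kept sites lay within 5 kb of the start of 334 protein-coding genes, and 236 of these genes had no depleted site within that distance. Depleted sites of the range lay within 5 kb of the start of 2432 genes. How many of those had no kept site was not counted, so the 236 have no share to be read beside. Among the 2710 sites of the range with such a start, 301, or 11.1%, were kept, and this is the share beside which the gene groups are read. The groups were counted without a test. Their shares leave out sites with p-values smaller than the range, which were all depleted. Such sites numbered 165 for other developmental transcription factors, 71 for signalling ligands and antagonists, and 66 for ion channels and transmitter receptors. There were 57 for adhesion and axon guidance, 22 for solute carriers, 12 for chromatin regulators and 9 for the ubiquitin system. Cell cycle genes had 6, pluripotency genes 3 and translation genes 1.

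Of 93 sites near homeobox genes, 14 were kept (15.1%, 9.18% to 23.7%), while 210 further homeobox sites had p-values beyond the range and were depleted. The kept homeobox sites tended to lie off the promoter, with 3 of 14 having a start within 1 kb and a median density of 2.3 CpG per 100 bp. The 4 strongest were in the coding exon of Pou3f4 on X (p-value 1.26e-42), 2923 bp upstream of Six3, an eye and forebrain regulator (8.36e-34), 2838 bp downstream of a start of Hoxb9, a gene of the posterior axis (6.16e-30), and 3898 bp downstream of Gsx2, a regulator of the ventral forebrain (8.28e-30). The last 3 had a depleted site within 5 kb. A Pcl3 site lay within 2 kb of 9 of the 14 kept and 58 of the 79 depleted homeobox sites.

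Other developmental transcription factors had 12 kept of 94 sites (12.8%, 7.46% to 21.0%), of which the strongest 4 were 2 sites at Sall1, 1 at Zic5 and 1 at Gli2, already described. A further site at Gli3, another Hedgehog effector (p-value 1.34e-29), and 1 at Rarb, a retinoic acid receptor (7.83e-26), lay in introns next to the start. Signalling ligands and antagonists had 6 of 48 (12.5%, 5.86% to 24.7%). Their strongest kept sites were at Fgf4, expressed in pluripotent cells (p-value 6.96e-29, coding exon, 22475 bp from Pcl3), Fgf5 (4.65e-25), Rspo3, an enhancer of Wnt signalling (8.13e-25), and Bmp7 (1.19e-20). Near Fgf5 the Pcl3 site had p-value 1.39e-103, and a depleted Suz12 site was centered 1850 bp away. Fgf4 was also the 1 kept site of 5 among the pluripotency genes.

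Adhesion and axon guidance genes had 16 of 91 (17.6%, 11.1% to 26.7%), led by Efna2, an ephrin (p-value 1.14e-36), Unc5b, a netrin receptor (9.35e-32), Epha4 (9.57e-31) and the protocadherin gene Pcdha11 (7.28e-29). None of the 16 had a Pcl3 site within 2 kb, against 41 of the 75 depleted sites of this group, which were stronger (median −log10 p 49.5 against 23.0). Ion channels and transmitter receptors had 10 of 109 (9.17%, 5.06% to 16.1%), among them the potassium channel genes Kcnh2 (p-value 2.47e-34) and Kcnj11 (1.56e-33). Solute carriers had the lowest share of the larger groups, 4 of 78 (5.13%, 2.01% to 12.5%): Slc6a9, a glycine transporter (1.34e-39), Slc25a4, a mitochondrial ADP/ATP carrier (7.01e-32), Slc26a10 (9.32e-30) and Slc25a37, a mitochondrial iron importer (4.55e-21).

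Chromatin regulators had 6 of 35 (17.1%, 8.10% to 32.7%), namely Bcorl1, Bcor, Smarcd3, a subunit of BAF remodelling complexes (p-value 1.89e-29), Phc2, a subunit of Polycomb repressive complex 1 (1.16e-22), Arid5a and Phf2. The Bcorl1 site was the 1 of these 6 with Pcl3 within 2 kb. The ubiquitin system had 6 of 49 (12.2%, 5.74% to 24.2%), with Rnf208 (4.41e-26), Klhl21 (3.08e-25), Fbxl14 (2.57e-22) and Nedd4l, a ubiquitin ligase of ion channels (6.74e-21), as its strongest. Cell cycle genes had 2 of 20 (E2f2, p-value 6.21e-31, and Ccnj, 5.21e-26) and translation genes 1 of 11 (Mrpl34, 8.53e-21). The Wilson intervals of the groups included 11.1% or, for adhesion and axon guidance genes, began at it.

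The study's own loci that kept Suz12 were chosen on these samples, so their presence here is no independent evidence. The site at the start of Tle3 (chr9:61220151-61222550, p-value 2.84e-58, 2400 bp) had 2 neighbours at 2100 and 3850 bp, with p-value 1.70e-18 and 5.43e-22, which were kept as well, and no depleted site lay nearer than 578625 bp. At Tmem151a a kept site in the coding exon (chr19:5081451-5083300, p-value 7.27e-45) had a depleted site 2950 bp away that covers the gene's start (p-value 2.07e-52). At Tns1, which encodes a focal adhesion protein, the kept site lay in an intron 55896 bp from the start (chr1:74114301-74115950, p-value 1.71e-48), and the sites at the start (p-value 3.25e-69) and 25396 bp from it (2.44e-136) were depleted. Of the 3 loci, Tle3 alone had every Suz12 site kept. The study reported these loci as unaffected by ChIP-qRT-PCR, with a single primer pair for each. Those amplicons were not placed among the sites here, so a depleted site at a locus does not bear on that result. At the loci the study tested as lowered, 0 of 5 sites within the range were kept (Wilson upper bound 43.5%), and 9 stronger ones were depleted, also by that choice.

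A joint logistic fit over the 3564 sites, with −log10 p and width as terms, gave the odds ratio of each feature beside the others. The odds ratio of being kept was 0.730 per SD of CpG density (0.637 to 0.836, Wald test, n = 3564, p = 5.33e-06), 0.941 for a Pcl3 site within 2 kb (0.710 to 1.25, p = 0.675), 1.16 for a start within 1 kb (0.882 to 1.53, p = 0.285) and 1.04 for divergent starts (0.493 to 2.19, p = 0.918). In fits with fewer terms, added after the values were seen, Pcl3 had an odds ratio of 0.723 beside −log10 p alone (0.558 to 0.937, Wald test, n = 3564, p = 0.0143) and 0.920 beside −log10 p and width (0.698 to 1.21, p = 0.554). Over strata of width alone, without p-value, it was 0.414. CpG density had an odds ratio of 0.824 beside −log10 p (0.726 to 0.936, Wald test, n = 3564, p = 0.00288) and 0.751 beside −log10 p and width (0.662 to 0.851, p = 7.67e-06). Across all alternatives the CpG term ranged from 0.714 to 0.863 and passed the test. It was weakest, 0.863 (0.747 to 0.996), without the 79 kept sites that had a depleted site within 5 kb. With a cutoff of 1e-25 it was 0.819 (0.681 to 0.985). All fits used the central 500 bp. Wider windows, where the odds ratio over strata was 0.942 (whole site) and 1.01 (1000 bp), were not fitted jointly. Width and p-value come from the same contrast as the rule and entered only as adjusting terms, so their own coefficients are not given as results. The odds ratios of Pcl3 and CpG density changed with this adjustment. The fit therefore cannot decide which feature goes with being kept apart from the values that chose the sites.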

How the data were processed

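The authors aligned 30-nucleotide single-end reads to mm9 with bowtie, kept unique alignments, scaled paired libraries to a common background level, scanned the genome in windows of 400 bp under a Skellam null model with a cutoff of 1e-07, and recomputed the p-value after joining windows. The deposited files are 4 site lists, and the p-value of each site is the measured value used here. For depleted Suz12 sites the file gives the p-value of binding again, not that of the loss. Read counts and depth per sample were not analysed here.

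Kept and depleted sites were compared by shares with 95% Wilson intervals, by Mantel-Haenszel odds ratios over 5 strata of p-value with a two-sided chi-squared test, and by logistic regression, with p-values adjusted over chromosomes and over motifs. Tested on simulated data, 5 strata left part of the difference in strength, while strata 2 units wide in −log10 p did not, so the latter were added and stand beside the former. The simulation also drew p-values of sites stronger than the range, and had independent sites and no width. It therefore cannot show that the narrow strata remove the difference in strength in these data. Strata without a kept site drop out of those comparisons. Sites were paired with Pcl3 or H3K27me3-depleted sites by centers within 2 kb. Genes, with starts of protein-coding transcripts, came from GENCODE vM1 and sequence from mm9. Coordinates are 1-based. CpG density is CpG per 100 bp.

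Named were the 10 strongest and 3 widest kept sites, the 3 with the smallest Pcl3 and the 3 with the smallest H3K27me3 p-value nearby, the tested loci, up to 4 sites of each gene list, and the 3 sites on either side of the cutoff. Others were named after their values were seen. Some sites that this rule names are not reported here. The members and gene lists were chosen with earlier results of these data known. Alternatives were other cutoffs, strata, distances, windows and chromosomes. Python 3.11.15, pandas 2.3.3, statsmodels 0.14.6, scipy 1.17.1 and pysam 0.24.0 were used.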

Additional observations from a re-analysis of the deposited data

How the results depend on the processing

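No paired analysis was possible because each Suz12 and H3K27me3 condition had 1 library and the 2 Pcl3 libraries have 1 site list between them, so no library could be left out either. The lower odds of a Pcl3 site near kept sites passed the test under every alternative over strata (0.414 to 0.724), but the Pcl3 term of the joint fit passed it only with p-value as the single other term (0.723), and was 1.01 with 1 site per run of neighbouring sites. The H3K27me3 odds ratio no longer passed without chromosome 11 (0.525), with centers within 5 kb (0.693) or with H3K27me3 p of at most 1e-12 (0.551). The CpG odds ratio no longer passed without kept sites that had a depleted site within 2 kb (0.790) or 5 kb (0.964, or 0.977 with the range of p-values narrowed to that of the remaining kept sites, which left 2625 depleted sites), with 1 site per run (0.850) or over the whole site (0.942), and was 1.01 over 1000 bp.

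For gene starts, a cutoff of 1e-25 gave 0.945 (0.914 in the joint fit), starts within 500 bp 0.934, and a cutoff of 1e-15 gave 1.20 (1.34 in the joint fit), which passed. Without kept sites beside a depleted site within 5 kb, starts (1.56, 1.57 with the narrowed range, 1.41 in the joint fit) and divergent starts (1.98 and 1.95) passed. The number of chromosomes past the threshold was 1 with a cutoff of 1e-25, where chromosome 11 (0.317) no longer passed, and 3 with a cutoff of 1e-15, where chromosome 14 passed too (2.15, adjusted p = 0.0300, chi-squared test over sites), or with 1 site per run, where chromosome 4 did (1.83). The number of motifs was 0 with either cutoff and over 1000 bp. Among motifs that did not pass, AGGCCT was 0.768 at 1e-25, 0.989 at 1e-15, 0.996 without kept sites near depleted ones, 0.999 with 10 strata, 0.965 without X and Y, 0.970 over 1000 bp and 0.987 with strata 2 units wide. TTCCCGC was 0.929 at 1e-15, AAGATGGC 1.10 in strata of width and 1.24 over 1000 bp, and GCGCGC 1.02 over 1000 bp. In all, 92 of 117 recomputed main values had the direction and the call of the reported one. The causes were not tested. P-values without counts limit the precision of a single site, which is unknown.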
